A study of Canis lupus familiaris with 222 samples.

Results

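Basal and non-basal canine mammary tumors (CMTs) were compared inside a single expression cluster, NMF1. Of 158 tumors, 92 belonged to NMF1 in the study's clinical table, and that table placed 18 of them in the basal and 74 in the non-basal class. The clusters came from non-negative matrix factorization (NMF) of the expression values, and the classes from clustering CMTs together with human breast cancers on the PAM50 genes. Since the classes were made from the expression of these same tumors, differences in gene levels between them are given as a description and are no independent evidence. Histology, clinical course and normal mammary tissue did not enter the classes, and comparisons of these are tests. Some are not wholly apart from the classes. PAM50 includes ESR1 and ERBB2, the genes of the stained estrogen receptor and HER2 proteins. It also includes the proliferation marker MKI67, while grade takes account of mitoses.

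The tumors arose spontaneously in pet dogs and were removed by surgery. All 92 dogs were female. Those with basal NMF1 tumors were 8 to 19 years old (median 13, age given for 16), and those with non-basal NMF1 tumors were 2 to 17 years old (median 12, age given for 72). Neutered dogs made up 4 of the 18 and 22 of the 74. Maltese was the most frequent breed, with 4 dogs in the basal class and 27 in the non-basal class. Fresh tissue was kept in RNAlater, and poly(A) RNA was sequenced. Adjacent normal mammary tissue was sequenced in 6 dogs of the basal class and 31 of the non-basal class. Levels are given as FPKM, a fragment count normalised for transcript length and library size. Each tumor is 1 library of a bulk tissue, in which fewer cells of a type and less RNA per cell cannot be told apart.

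PAM50 is a panel of genes by which human breast cancers are sorted into intrinsic subtypes. Basal-like cancers express keratins of the basal layer of the mammary duct, divide quickly and mostly lack the estrogen receptor (ER), while luminal A cancers are ER positive, grow slowly and resemble the luminal cells that line the duct. In the dog, simple carcinomas consist of 1 epithelial cell type, complex carcinomas also hold proliferating myoepithelial cells, and solid carcinomas grow in sheets without tubules. No table used here pairs the Ensembl identifiers of the files with gene names. The basal label was therefore not checked against keratin or hormone receptor transcripts, and genes are named by identifier only. The protein stains in the labels bear on it: ER was scored negative in 7 of the 18 basal tumors and positive in the other 11.

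Basal NMF1 tumors were of higher grade than non-basal NMF1 tumors. Grade, read from nuclear shape, mitoses and tubule formation, was 3 in 10 of 18 basal tumors (55.6%, exact 95% confidence interval 30.8% to 78.5%) and in 3 of 74 non-basal tumors (4.05%, 0.844% to 11.4%; Fisher's exact test, two-sided, adjusted p = 1.05e-05 over 8 features). The remaining basal tumors were 7 of grade 2 and 1 benign tumor. None of the basal tumors was of grade 1. The non-basal tumors held 25 benign tumors, 37 of grade 1 and 9 of grade 2. By the labels, 1 of 18 basal and 25 of 74 non-basal tumors were benign (exact adjusted p = 0.0249). A total of 6 of these non-basal tumors carry a grade in the study's clinical table, and with its grades the difference did not pass the threshold (exact adjusted p = 0.123, an alternative chosen after the data were seen).

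Basal tumors more often invaded lymphatic vessels, lacked ER protein and had a solid histology. Lymphatic invasion was recorded in 6 of 18 basal (33.3%, exact interval 13.3% to 59.0%) and 1 of 74 non-basal tumors (1.35%, 0.0342% to 7.30%; exact adjusted p = 3.21e-04). ER was negative in 7 of 18 (38.9%, 17.3% to 64.3%) and 5 of 73 tumors (6.85%, 2.26% to 15.3%; exact adjusted p = 0.00268). The Allred score, which adds the share and the intensity of ER-stained nuclei, had a mean of 3.94 ± 2.18 (SD, n = 18) in basal and 6.40 ± 1.93 (SD, n = 73) in non-basal tumors (permutation test, two-sided, adjusted p = 1.47e-04). Solid carcinomas made up 8 of 18 and 3 of 74 tumors (exact adjusted p = 1.47e-04). The other basal tumors were 4 tubulopapillary carcinomas, 1 anaplastic carcinoma, 4 complex carcinomas and 1 benign mixed tumor.

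For the remaining features the difference did not pass the threshold. Simple histology of any type was seen in 13 of 18 basal tumors and in 35 of 74 non-basal ones (exact adjusted p = 0.0793). The highest HER2 stain score of 3 was found in 6 of 18 (33.3%, 13.3% to 59.0%) and 17 of 73 tumors (23.3%, 14.2% to 34.6%; exact adjusted p = 0.379). HER2 is the growth factor receptor encoded by ERBB2.

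The classes shared few tumors of like grade. In the 17 basal and 12 non-basal tumors of grades 2 and 3, basal tumors still had the higher shares of grade 3 (10 of 17 against 3 of 12), lymphatic invasion (6 of 17 against 1 of 12), ER negativity (7 of 17 against 2 of 12) and solid carcinomas (8 of 17 against 3 of 12). None of these differences passed the threshold among so few tumors (exact adjusted p = 0.319 for each over 7 features). Simple histology was nearly as frequent in both, with 13 of 17 against 9 of 12 (exact adjusted p = 1.00).

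**Figure D1:**
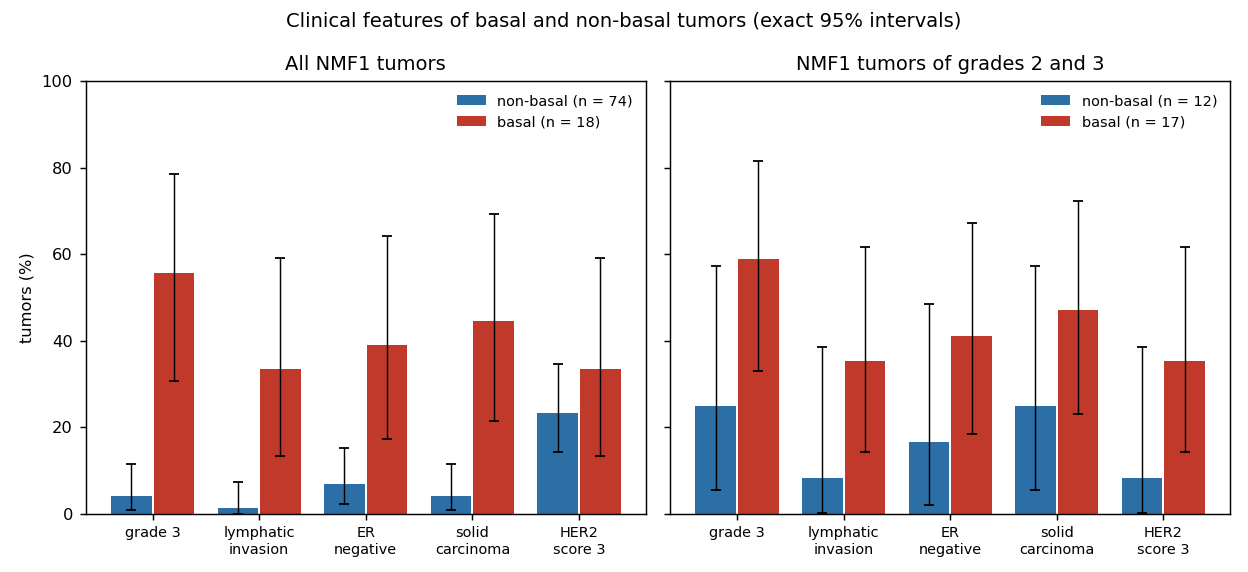
Share of tumors in percent with each clinical feature in non-basal (blue) and basal (red) NMF1 tumors, for all grades (left) and for grades 2 and 3 only (right). Bars start at 0 and error bars are exact 95% confidence intervals, which separate the classes for grade 3, lymphatic invasion, ER negativity and solid carcinoma over all grades and overlap for every feature within grades 2 and 3.

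Survival did not differ detectably between the classes inside NMF1. In the follow-up of the labels, 4 of 18 dogs died in the basal class and 11 of 74 in the non-basal class (hazard ratio 1.60, 95% confidence interval 0.509 to 5.03, log-rank test by permutation, p = 0.392). By Kaplan-Meier estimates, 81.9% (53.8% to 93.8%) survived 1 year with basal and 86.9% (76.3% to 93.0%) with non-basal tumors. With 15 deaths the interval allows a hazard for basal tumors that is 5.03 times as high as well as one that is lower. More dogs of the basal class were lost to follow-up, 7 of 18 against 13 of 74, a count added after the data were seen (Fisher's exact test, p = 0.0613). These dogs entered as alive for the follow-up days of the labels, which give survival status until a shared closing date. Whether they were observed for that long is not stated, so these estimates may rest in part on time that was not observed. In malignant tumors the hazard ratio was 1.18 (0.368 to 3.76, permutation p = 0.816) and in tumors of grades 2 and 3 it was 1.74 (0.319 to 9.54, permutation p = 0.444). The follow-up of the study's clinical table covers fewer dogs and more non-basal deaths. By it, 4 of 14 basal and 16 of 68 non-basal dogs died (hazard ratio 1.67, 0.555 to 5.01, permutation p = 0.415). Survival at 1 year was then 65.6% (26.0% to 87.6%) with basal and 78.1% (63.7% to 87.4%) with non-basal tumors. The shares surviving thus depend on the source of the follow-up.

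At the level of genes, basal NMF1 tumors had 204 genes at higher and 349 at lower levels than non-basal NMF1 tumors. A gene was called where limma gave a Benjamini-Hochberg adjusted p under 0.05 and a difference of at least 1 on the log2(FPKM + 1) scale. The calls make up 1.41% (higher) and 2.42% (lower) of 14437 genes tested. Differences in the lower direction reached further. The largest was 2.43 among the higher and -4.49 among the lower genes, and sizes of at least 2 were found for 10 higher and 63 lower genes. Differences of at least 3 were found for 12 genes, which were all lower in basal tumors.

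The genes lower in basal tumors were also the more abundant ones. Over the 349 lower genes, the median of the mean levels was 17.8 FPKM in non-basal and 6.43 FPKM in basal tumors, and for 45 of them the non-basal mean was at least 100 FPKM. Over the 204 higher genes it was 10.8 FPKM in basal and 2.85 FPKM in non-basal tumors, and 9 had a basal mean of at least 100 FPKM. Together, the lower genes took up a median of 5.50% of all FPKM in non-basal tumors (lowest 2.32%, highest 9.83%) and 1.78% in basal tumors (0.873% to 4.00%). The higher genes took up 0.298% (0.119% to 0.899%) and 0.884% (0.469% to 1.42%). Of the higher genes, 19.1% had a median of at least 1 FPKM in basal and under 1 FPKM in non-basal tumors, and 29.2% of the lower genes showed the opposite.

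The classes overlapped for every one of the 553 genes. All 18 basal tumors lay above the non-basal median for 63.2% of the 204 higher genes, and below it for 19.8% of the 349 lower genes. The median number of basal tumors past the non-basal median was 18 for higher and 16 for lower genes, and the smallest was 8 and 10. High shares follow in part from choosing the genes on these same tumors. The overlap and the shares past the median were not counted over all genes tested. Basal tumors were the more variable class at most genes: the SD of log2(FPKM + 1) was larger in basal tumors for 67.6% of the higher and 53.6% of the lower genes, and for 80.0% of all genes tested. At the threshold, the smallest called difference was 1.00 in size, with the nearest uncalled ones just below it.

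The 2 genes named for the higher direction differed in all 18 basal tumors from the middle of the non-basal class. ENSCAFG00000009745 lay between 26.5 and 152 FPKM in basal tumors (median 46.3, mean 56.6 ± 36.9, SD, n = 18) and between 0.592 and 34.1 FPKM in non-basal tumors (median 9.59, mean 11.7 ± 8.28, SD, n = 74). Of the basal tumors, 14 lay above the highest non-basal tumor. The log2 difference was 2.27 (SE 0.22). ENSCAFG00000009336 lay between 12.9 and 59.1 FPKM in basal tumors (median 22.3, mean 25.7 ± 13.0, SD, n = 18) and between 0.289 and 24.1 FPKM in non-basal tumors (median 3.83, mean 5.06 ± 3.82, SD, n = 74). It separated the classes less fully, with 5 basal tumors above the highest non-basal one, and had a log2 difference of 2.24 (SE 0.20). Both genes were high in the single benign basal tumor too, at 46.2 and 19.4 FPKM.

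The 2 genes named for the lower direction varied far more within each class. ENSCAFG00000003648 lay between 0.653 and 963 FPKM in basal tumors (median 24.2) and between 9.50 and 10201 FPKM in non-basal tumors (median 669), with a log2 difference of -4.49 (SE 0.55). All but 1 basal tumor lay below the non-basal median, and 6 lay below the lowest non-basal tumor. ENSCAFG00000015860 lay between 0 and 221 FPKM in basal tumors (median 4.34) and between 0.992 and 24030 FPKM in non-basal tumors (median 249), with a log2 difference of -4.45 (SE 0.69). All 18 basal tumors lay below the non-basal median, and 12 of them were at 1 FPKM or more. Means are poor summaries of these genes, since the SD exceeded the mean in both classes: for ENSCAFG00000003648 the basal tumors had 99.2 ± 222 FPKM (SD, n = 18) and the non-basal tumors 1054 ± 1467 FPKM (SD, n = 74).

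**Figure D2:**
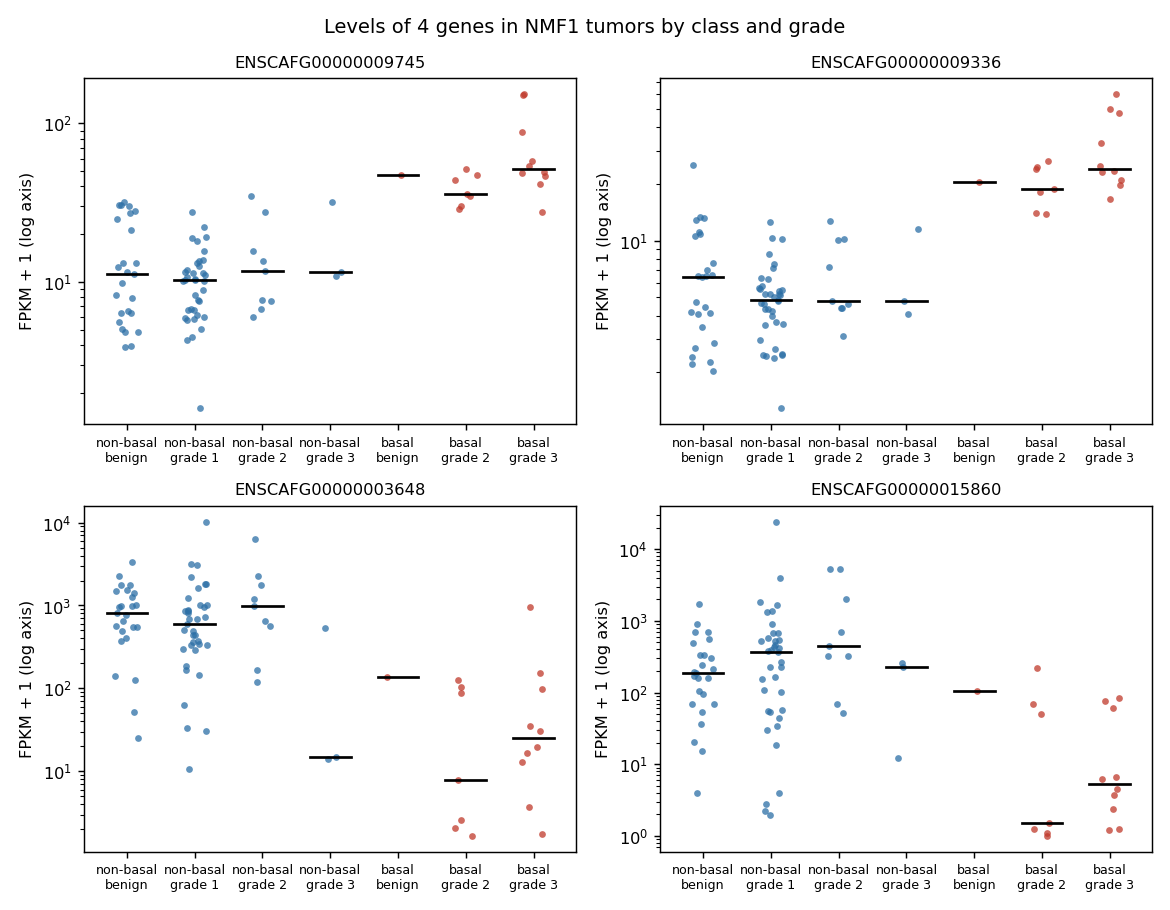
Levels of 4 genes in single NMF1 tumors as FPKM + 1 on log axes, by class (blue non-basal, red basal) and grade on the horizontal axis; each point is 1 tumor and each line a median. The upper genes are higher in every basal tumor than the non-basal median, while the lower genes spread widely in both classes and, for ENSCAFG00000003648, are already low in 2 of the 3 non-basal tumors of grade 3.

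With grade as a covariate, the differences of the called genes became smaller at the median and fewer genes were called. Among the same 92 tumors, 121 genes were higher (0.838% of 14437) and 151 lower (1.05%) in basal tumors, and 251 of the 553 genes called without grade were called with it (45.4%). The median difference went from 1.32 to 1.07 over the 204 higher genes and from -1.32 to -1.06 over the 349 lower genes, beside -0.04 over all genes tested. Of the 302 genes that lost the call, 79.8% no longer passed the adjusted p, and the other 61 genes passed it with a difference under 1. The standard errors were larger as well, by a median factor of 1.41. None of the 553 genes changed direction, and 21 genes were called only with grade. The 553 genes were chosen for their differences without grade in these same tumors. Smaller differences, lost calls and kept signs follow in part from that choice. With no basal tumor in grade 1 and 1 among the benign tumors, this fit compares the classes almost wholly inside grades 2 and 3.

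**Figure D3:**
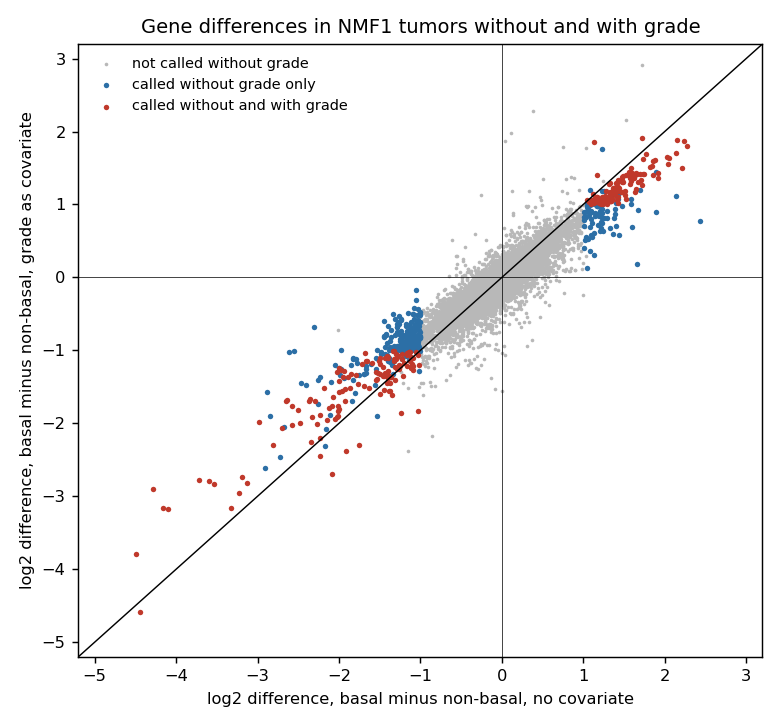
Log2 difference in FPKM + 1, basal minus non-basal, for 14437 genes in the 92 NMF1 tumors without a covariate (horizontal) and with grade as a covariate (vertical); the line marks equal values. Of the 553 genes called without grade, the 251 also called with it (red) and the 302 that lost the call (blue) all keep their sign and mostly lie nearer to 0 with grade.

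The named genes kept their calls with grade. The log2 difference was 1.80 (SE 0.31) for ENSCAFG00000009745, 1.87 (SE 0.28) for ENSCAFG00000009336, -3.79 (SE 0.79) for ENSCAFG00000003648 and -4.59 (SE 0.99) for ENSCAFG00000015860. Their selection had required a call in both fits.

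When the 29 tumors of grades 2 and 3 were taken alone, 110 genes were higher (0.761% of 14453) and 113 lower (0.782%) in basal tumors. These tumors are part of the 92. The genes called in all NMF1 tumors had median differences of 1.09 for the 204 higher and -1.12 for the 349 lower ones, beside -0.01 over all genes.

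Within grades 2 and 3, the values of the called genes were also taken for each grade. They are given as a description, since no test showed a difference between the grades. The median difference over the 204 higher genes was 1.09 in grade 2 (7 basal and 9 non-basal tumors) and 1.12 in grade 3 (10 and 3 tumors). Over the 349 lower genes it was -1.42 in grade 2 and -0.60 in grade 3. ENSCAFG00000003648 had a difference of -5.97 (SE 1.18) in grade 2 and -0.73 (SE 1.54) in grade 3, where the 3 non-basal tumors were at 13.2, 13.9 and 533 FPKM. A direct test of the difference between grades called 0 of 14453 genes (0% called; limma, smallest adjusted p = 0.126, 430 genes at an unadjusted p under 0.05). With 3 non-basal tumors of grade 3, the median gene had a 95% interval of ± 0.85 in that test, so differences between grades of the size seen at the median of the lower genes were not detectable gene by gene.

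A summed level placed single tumors along the difference. For each library, the mean log2(FPKM + 1) of the 349 lower genes was subtracted from that of the 204 higher genes; as the genes were chosen on the NMF1 tumors, the values of these tumors are a description. Basal NMF1 tumors lay between -0.33 and 2.23 (median 1.03) and non-basal ones between -3.09 and 0.11 (median -2.01). The lowest basal tumor was the single benign one. Basal tumors of grades 2 and 3 had the same median of 1.14, and medians by histology were 1.14 for solid, 1.10 for tubulopapillary and 0.63 for complex carcinomas. Basal tumors with lymphatic invasion had a median of 1.12 and those without 1.03. Basal tumors that were ER negative had a median of 1.38 (-0.03 to 1.65, n = 7) and ER positive ones 0.90 (-0.33 to 2.23, n = 11). The ranges overlapped in both cases.

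Non-basal tumors had medians of -2.19 when benign, -2.10 in grade 1 and -1.90 in grade 2. The 3 of grade 3 lay apart from each other at -1.49, -0.42 and 0.11. A total of 3 non-basal tumors lay above the lowest basal tumor: a benign mixed tumor at -0.22, a simple adenoma at -0.07 and the solid carcinoma of grade 3 at 0.11. All 3 were ER positive without lymphatic invasion. Both benign tumors are among the 6 that carry a grade in the study's clinical table.

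**Figure D4:**
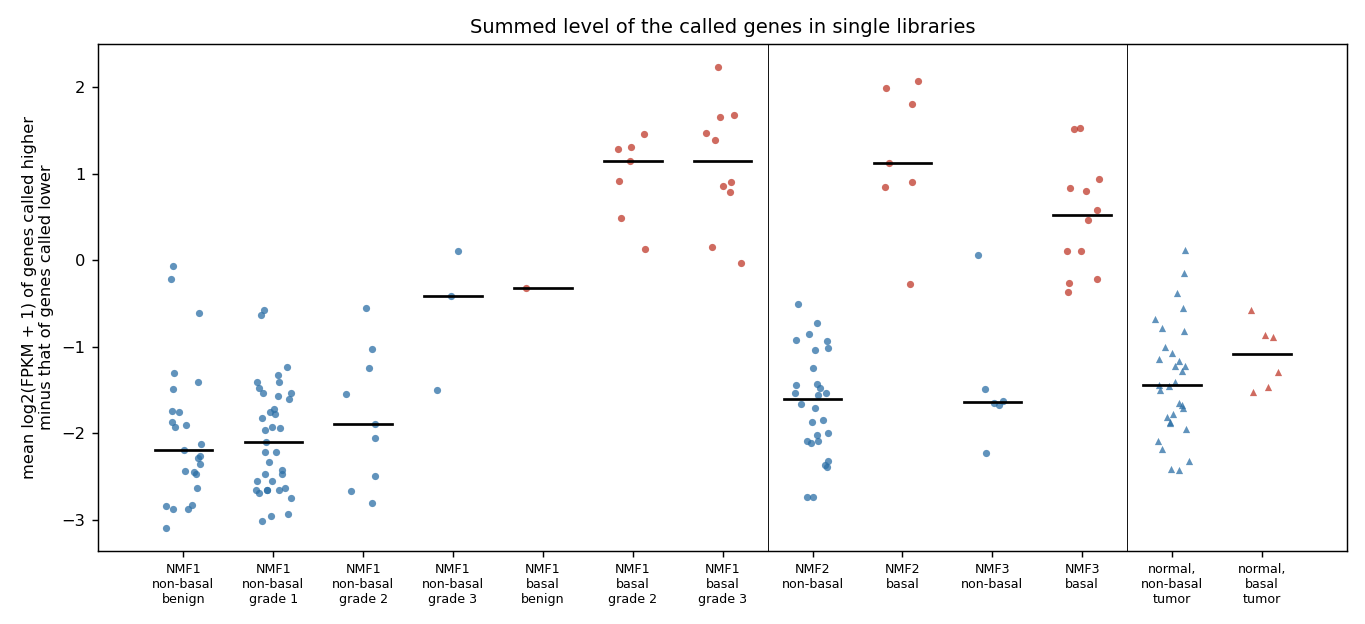
Mean log2(FPKM + 1) of the 204 genes called higher minus that of the 349 called lower in basal NMF1 tumors (vertical axis), for single libraries by cluster, class and grade; circles are tumors, triangles are normal tissue of NMF1 dogs and lines are medians. Basal tumors (red) of all 3 clusters lie mostly above 0 and non-basal tumors (blue) mostly below -1, while normal tissue of dogs with basal tumors (-1.53 to -0.58) lies inside the range of that of dogs with non-basal tumors (-2.43 to 0.12).

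The same genes separated the classes in tumors outside NMF1. NMF2 and NMF3 tumors did not enter the choice of the genes, although their classes came from the same clustering on PAM50 genes. Without gene names, PAM50 genes could not be removed from the called genes. Part of the separation may thus follow from how the classes were made, and it is given as a description. Grade was uneven here too: most NMF2 basal tumors were of grade 3, and most NMF2 non-basal tumors were benign or of grade 1. The NMF3 basal tumors included osteosarcomas. The part of grade and histology in this separation was not tested. In NMF2, basal tumors had summed levels between -0.27 and 2.07 (median 1.12, n = 7) and non-basal tumors between -2.74 and -0.51 (median -1.61, n = 28), with no overlap. In NMF3, basal tumors lay between -0.37 and 1.52 (median 0.52, n = 12) and non-basal tumors between -2.23 and 0.06 (median -1.64, n = 6), where 1 non-basal tumor reached into the basal range.

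In NMF2 tumors, 1.87% of 14080 genes were called higher and 2.71% lower in the basal class. With grade as a factor these shares were 1.07% and 1.35%, and the calls below are those without grade. Of the 204 genes higher in NMF1 basal tumors, 146 were called higher in NMF2 as well, which is 71.6% of the NMF1 genes and 56.8% of the NMF2 genes tested in both clusters. For the lower genes, the shared calls made up 52.4% of the NMF1 and 48.0% of the NMF2 genes. The differences were of similar size, with medians in NMF2 of 1.41 over the 204 and -1.43 over the 349 genes, beside 0.03 over all genes. The sign was the same in NMF2 for 98.0% of the 204 and 99.1% of the 349 genes, where 52.5% of all genes were higher and 47.5% lower in basal tumors.

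ENSCAFG00000009745 was higher in NMF2 basal tumors by 2.15 (SE 0.37) and ENSCAFG00000009336 by 2.31 (SE 0.36) on the log2 scale. ENSCAFG00000003648 differed there by -5.58 (SE 0.98). ENSCAFG00000015860 was not called in NMF2, with a difference of -1.53 (SE 1.42). In NMF2 basal tumors it ranged from 7.19 to 8361 FPKM (median 54.5), and in NMF2 non-basal tumors from 0.255 to 19165 FPKM (median 353).

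A test of the difference between the clusters called 1 of 14424 genes (0.00693%; limma, 1107 genes at an unadjusted p under 0.05). This was ENSCAFG00000023821, named after its values were seen, with a basal minus non-basal difference 1.62 lower (SE 0.27, adjusted p = 4.39e-04) in NMF1 than in NMF2. It was nearly absent from NMF1, at 0 to 0.704 FPKM in basal and 0 to 2.75 FPKM in non-basal tumors. In NMF2 basal tumors it ranged from 0.0237 to 70.2 FPKM (median 0.620), and the next highest value was 5.25 FPKM. Without the highest tumor the mean level of the gene was 0.271 FPKM, under the minimum for testing. Its difference between the clusters without that minimum was -0.88 (SE 0.18, limma adjusted p = 0.00704). This passed the adjusted p but was under 1 in size. With the minimum level kept and that tumor left out, the test called 2 other genes.

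In normal mammary tissue of the same dogs, differences were far smaller and no gene passed the test. Between the normal tissue of the 6 dogs of the basal class and the 31 of the non-basal class, 0 of 14602 genes were called (0% called; limma, smallest adjusted p = 1.00, 296 genes at an unadjusted p under 0.05). The median gene had a 95% interval of ± 0.46, which is less than the differences called in tumors. Over the 198 of 204 higher genes and all but 1 of the 349 lower genes tested there, the median differences were 0.09 and -0.12, beside 0.01 over all genes. The sign was that of the tumors for 73.7% of these higher genes, where 53.2% of all genes were higher, and for 60.9% of these lower genes, where 46.8% of all genes were lower. With 6 dogs in the basal class, small differences were not detectable, and larger ones could be missed at variable genes. The named genes differed by 0.36 (SE 0.56), 0.39 (SE 0.43), -0.57 (SE 1.19) and -0.78 (SE 1.24) for ENSCAFG00000009745, ENSCAFG00000009336, ENSCAFG00000003648 and ENSCAFG00000015860, and the intervals of the lower genes are wide. Summed levels in normal tissue lay between -1.53 and -0.58 (median -1.09) in dogs with basal and between -2.43 and 0.12 (median -1.44) in dogs with non-basal tumors.

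**Figure D5:**
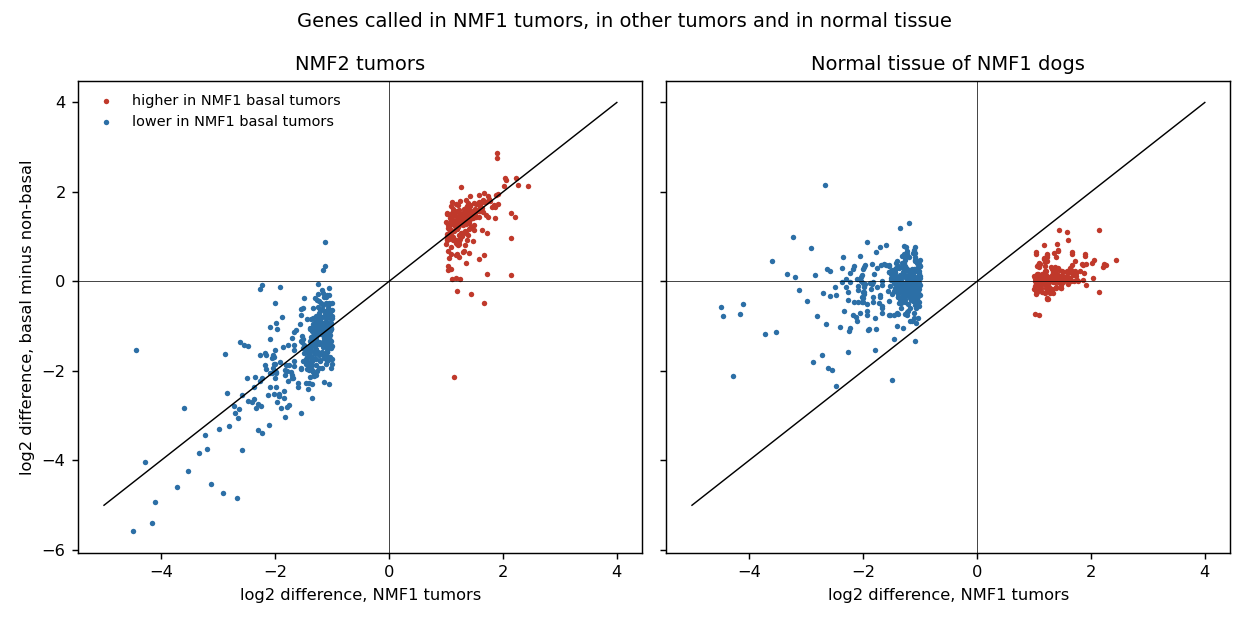
Log2 difference in FPKM + 1, basal minus non-basal, in NMF1 tumors (horizontal) against NMF2 tumors (left, vertical) and normal tissue of NMF1 dogs (right, vertical), for genes called higher (red) or lower (blue) in NMF1 basal tumors; the lines mark equal values. In NMF2 tumors 98.0% of the higher and 99.1% of the lower genes keep their sign, while in normal tissue the medians are 0.09 and -0.12.

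Tumors were also set against normal tissue of the same dog. As the genes were chosen for their difference between these tumors, the choice itself sets the classes apart on the summed level, which is given as a description. It was above that of the own normal tissue in 6 of 6 basal tumors (by 0.71 to 2.77, median 1.60) and in 4 of 31 non-basal tumors (by -2.79 to 1.48, median -0.76). For ENSCAFG00000003648, normal tissue had medians of 172 FPKM in dogs with basal and 129.1 FPKM in dogs with non-basal tumors, which lie between the 24.2 FPKM of basal and the 669 FPKM of non-basal tumors. For ENSCAFG00000015860, normal tissue was low in both, with medians of 2.93 and 3.62 FPKM, near the 4.34 FPKM of basal tumors and under the 249 FPKM of non-basal tumors. ENSCAFG00000009745 had medians of 16.0 and 9.58 FPKM in normal tissue, nearer to the 9.59 FPKM of non-basal than to the 46.3 FPKM of basal tumors.

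With tumor minus own normal tissue as the value of each of these 37 dogs, 81 genes were higher (0.552% of 14681) and 31 lower (0.211%) in the basal class. These tumors are part of the 92. Most genes called in the 92 tumors were not called here: 74 of the 204 higher and 17 of the 349 lower genes were, with median differences of 1.21 and -1.14, beside -0.05 over all genes. Of the named genes, ENSCAFG00000009336 was called, with a difference of 1.98 (SE 0.42, limma adjusted p = 0.0120). ENSCAFG00000009745 (1.83, SE 0.55, adjusted p = 0.0936), ENSCAFG00000003648 (-3.22, SE 1.20, adjusted p = 0.226) and ENSCAFG00000015860 (-3.55, SE 1.66, adjusted p = 0.393) were not. Over the same 74 libraries without the pairing by dog, 0.347% of the 14681 genes were called in place of 0.763%, and the median SE was 0.30 in place of 0.26. The levels of the 37 tumors alone, which are another quantity, gave 255 higher and 204 lower genes.

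Measures of whole libraries differed little between the classes. The median FPKM of a library was 7.07 in the middle basal and 7.50 in the middle non-basal tumor (permutation test, p = 0.146), and the 100 highest genes held a median of 49.8% and 49.3% of all FPKM (p = 0.231). Genes at 1 FPKM or more numbered 11953 to 13016 (median 12513.5) in basal and 11523 to 13281 (median 12668) in non-basal tumors (p = 0.0502, adjusted p = 0.151). At 0.1 FPKM or more, basal tumors had a mean of 15306 genes and non-basal tumors 15508 (permutation p = 0.0165), and the part of this in the gene differences was not tested. No sequencing batch is given in the labels. By year of surgery, basal tumors numbered 4, 13 and 1 and non-basal tumors 19, 46 and 9 in 2016, 2017 and 2018. Within 2016, 0.730% of 14377 genes were higher and 0.160% lower, and the named genes differed by 1.76, 1.76, -4.73 and -5.74 in the order above. Within 2017 they differed by 2.40, 2.36, -4.40 and -3.48.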

How the data were processed

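Tumor and adjacent normal mammary tissue were sequenced as poly(A) RNA on an Illumina HiSeq instrument. According to the study's methods and the submitters' processing notes (FastQC 0.10.1, TopHat2 2.0.9, Bowtie2, Cufflinks 2.1.1), the authors mapped reads to CanFam3.1 with Ensembl annotation and deposited FPKM values for 24580 identifiers in 222 libraries. FPKM gives no read number per gene, so depth per value is unknown. Tissue, grade, histology, stains and follow-up came from the labels; cluster and class came from the study's clinical table. Members, lists and tests were chosen with earlier results of these data known.

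Genes whose FPKM averaged 0.5 or more over the compared libraries were fitted on log2(FPKM + 1) with limma 3.58.1 (trend, R 4.3.3), two-sided, with Benjamini-Hochberg adjustment over all genes tested; the pseudocount understates differences of low genes. The procedure was tested on simulated data. Named genes were the 2 with the largest difference in each direction among genes called without and with grade (106 higher, 124 lower) and a mean of at least 5 FPKM in the higher class. Fisher's exact tests, permutation tests with 100000 resamples (smallest p 1e-05) and survival used Python 3.11.15, scipy 1.17.1, statsmodels 0.14.6 and lifelines 0.30.3. A dog's tumor and normal tissue were paired by dog. Alternatives changed the pseudocount, filter, scaling, weights, covariates and tumors used.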

Additional observations from a re-analysis of the deposited data

Results flagged for a closer look

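A total of 36 checks in groups of 6 to 10 samples looked for a sample far from the others. The same groups were reused for each named gene and for the summed level. Chance alone meets the rule in about 1 of 20 checks, and 2 met it, which is near that share. ENSCAFG00000023821 had a log2(FPKM + 1) of 6.15 in the dog CMT-586, against 2.64 in the next highest of 7 NMF2 basal tumors. The summed level of the called genes was 0.0578 in the dog CMT-210, against -1.49 in the next highest of 6 NMF3 non-basal tumors.

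ENSCAFG00000023821 was also the single gene called in the test of a basal minus non-basal difference between clusters, by -1.62 in NMF1 relative to NMF2. It reached the minimum level for that test only through the tumor of CMT-586, so the call at these thresholds rests on that tumor. Without that tumor and that minimum, the difference was -0.88 (limma adjusted p = 0.00704).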

How the results depend on the processing

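Of 57 alternative counts of called genes, 43 lay within 1.5 times the reported count. The 43 include counts of 0 beside a reported 0, for normal tissue and for the difference between grades. With a pseudocount of 0.1 in place of 1, 1083 genes (7.50% of those tested) were called in NMF1 tumors in place of 553, 515 with grade (3.57%, in place of 1.88%), 352 in grades 2 and 3 (2.44%) in place of 223, 7.01% in place of 4.57% in NMF2 tumors, 0.375% in place of 0.763% for tumor minus own normal tissue and 2 genes (0.0139%) for the difference between clusters. The last test also gave 2 genes (0.0139%) without the tumor highest in ENSCAFG00000023821, an alternative chosen after seeing the data. In simple carcinomas only, 120 genes were called with grade (0.834%) and 45 in grades 2 and 3 (0.312%), and ENSCAFG00000003648 (-3.01) and ENSCAFG00000015860 (-4.02) were not called with grade. Without a minimum difference, 4668 genes passed (32.3%). With grade as a factor, 340 genes were called in NMF2 (2.41%). Surgery year 2016 alone, chosen after seeing the data, gave calls for 0.890% of genes in place of 3.83%, and ENSCAFG00000009745 (1.76) and ENSCAFG00000003648 (-4.73) were not called. The other 96 of 100 alternative values of named genes kept their direction and their side of the threshold. Changes of the filter or of the minimum difference leave the estimate of a gene as it was. The genes were also chosen for large differences called in both fits. Leaving out each grade 3 non-basal tumor in turn gave 0 calls for the difference between grades each time.

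Dogs pair the tumor and normal tissue of 37 animals. Without the replicate block, the basal minus non-basal difference in tumor minus normal tissue gave calls for 0.347% of genes, in place of 0.763%. This used the same 74 libraries and was an alternative chosen after seeing the data. The fit with the block is thus the one with more calls. The alternative without the block that also leaves out the normal tissue compares tumor levels, over 14437 in place of 14681 genes, and gave 3.18%. For the classes themselves, no pairing exists.

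Within grades 2 and 3, basal minus non-basal differences that no longer passed were 33.8 percentage points for grade 3, 27.0 for lymphatic invasion, 24.5 for ER negativity, 22.1 for solid carcinoma and -1.20 for the Allred score. Within 2016, with 4 basal tumors, they were 25.0 points for grade 3, 0 for lymphatic invasion, 50.0 for ER negativity, -52.6 for benign tumors and -2.58 for the Allred score. HER2 score 3 (-16.7), simple histology (-2.63) and solid carcinoma (-5.26) turned direction there. Within 2017, ER negativity (27.6) and benign tumors (-20.6) did not pass, nor did benign tumors (-20.1) by the grades of the clinical table. At 0.1 FPKM in place of 1, basal tumors had a mean of 202 fewer detected genes (-202, permutation p = 0.0165). The cause of these changes was not tested. Depth per gene is unknown, and the 18 basal tumors, 3 non-basal tumors of grade 3 and 6 normal tissues of basal dogs limit the precision.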
